A study of Mus musculus with 20 samples.

Results

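The 9 genes Adrb1, Adra1a, Adra1b, Adcy5, Adcy6, Pde3a, Pde4d, Prkar1a and Ppp1r1a encode adrenergic receptors of the heart and proteins that make, break down or relay cyclic AMP. They were taken by symbol from the deposited expression tables of mouse left ventricle, which list 19872 genes at 2 weeks and 19985 genes at 24 weeks. All 9 were listed in both tables, and all 9 passed the filter on low values at both times. RNA was sequenced from 5 libraries in each of 4 groups: dnOGAh-Tg left ventricle and Control left ventricle, harvested after 2 weeks or 24 weeks of induction with doxycycline in the food. The dnOGAh-Tg mice overexpress a dominant-negative O-GlcNAcase (OGA, encoded by Oga, the enzyme that removes O-GlcNAc sugar from proteins), which the series describes as cardiac specific. The labels name neither the promoter that drives it, the strain, the age or the sex, nor the alleles that Control mice carry or whether they received the same food. Nothing in them says that the libraries come from separate animals, and the p-values then reflect only how far these libraries spread.

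Adrenaline and noradrenaline act on the heart through beta receptors, which couple through the stimulatory G protein to adenylyl cyclase, and through alpha-1 receptors, which couple to Gq and phospholipase C. Cyclic AMP made by the cyclases binds the regulatory subunits of protein kinase A and releases its catalytic subunits, which phosphorylate proteins of calcium handling and of the sarcomere and so raise the force and rate of contraction. Phosphodiesterases end the signal by hydrolysing cyclic AMP, and protein phosphatase 1 removes the phosphate again.

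Several libraries stood apart and touch the results below. Reads at Oga were 8608 and 6406 normalized counts in the 2 dnOGAh-Tg libraries of 2 weeks whose titles carry the code F11, and 42127 to 61206 in the other 3 of that group, against 2565 to 4269 in Control libraries. At 24 weeks Oga was 21661 to 56078 in dnOGAh-Tg libraries and 2521 to 3721 in Control libraries. The predicted gene Gm37194, picked after its values were seen, split the libraries of 2 weeks in another way: all 5 dnOGAh-Tg libraries (96.6 to 218) and Control 5 (117) were high, while Control 1 to 4 lay between 0 and 1.26. At 24 weeks it was low in dnOGAh-Tg 2 (3.56) and Control 2 (3.05), and 48.3 to 105 in the rest. Recovered reads per library ranged from 22804712 to 50996272. Of 8 ventricular myocyte markers none was at 0, and their sum at 24 weeks was 1179440 to 1667070 in dnOGAh-Tg libraries and 1656070 to 2218620 in Control libraries, with 0 of 8 higher and 4 of 8 lower. Mural cell markers summed to 8803 to 15375 in dnOGAh-Tg libraries of 24 weeks and 21344 to 28889 in Control libraries, with 1 of 6 higher and 1 of 6 lower. Endothelial markers summed to 15711 to 21992 in dnOGAh-Tg libraries and 23295 to 27913 in Control libraries, with 5 of 6 lower. Erythroid markers summed to 12748 to 21483 in dnOGAh-Tg libraries of 24 weeks and 20834 to 36450 in Control libraries; all 4 that could be tested were lower, with a median log2 change of -0.81. Atrial markers summed to 443 to 6903 in dnOGAh-Tg libraries of 24 weeks and 59.7 to 99.9 in Control libraries, and at 2 weeks to 83.1 to 154 in dnOGAh-Tg libraries and 63.8 to 8816 in Control libraries. The part of these marker levels in the results was not tested.

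After 24 weeks, receptors, a cyclase, a phosphodiesterase and a regulatory subunit of protein kinase A were lower in dnOGAh-Tg ventricle, and an inhibitor of protein phosphatase 1 was higher. Of the 9 genes, 6 fell (Adra1a, Adra1b, Adrb1, Pde3a, Adcy6 and Prkar1a), 1 rose (Ppp1r1a), and Adcy5 and Pde4d did not pass the test (limma on log2 of the normalized count plus 1, adjusted p under 0.05 over 14676 genes). Across all tested genes 22.5% were called at this time, 11.3% higher and 11.1% lower. The median log2 change of the 9 genes was -0.49, beside -0.0046 over all tested genes and -0.52 over the 8 ventricular myocyte markers. The values of dnOGAh-Tg and Control libraries did not overlap for 3 of the 9 (Adra1a, Adra1b and Prkar1a, all lower), beside 16.7% of all tested genes (8.49% higher, 8.19% lower). In whole-ventricle RNA, fewer cells of a type and less RNA per cell cannot be told apart.

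**Figure D1:**
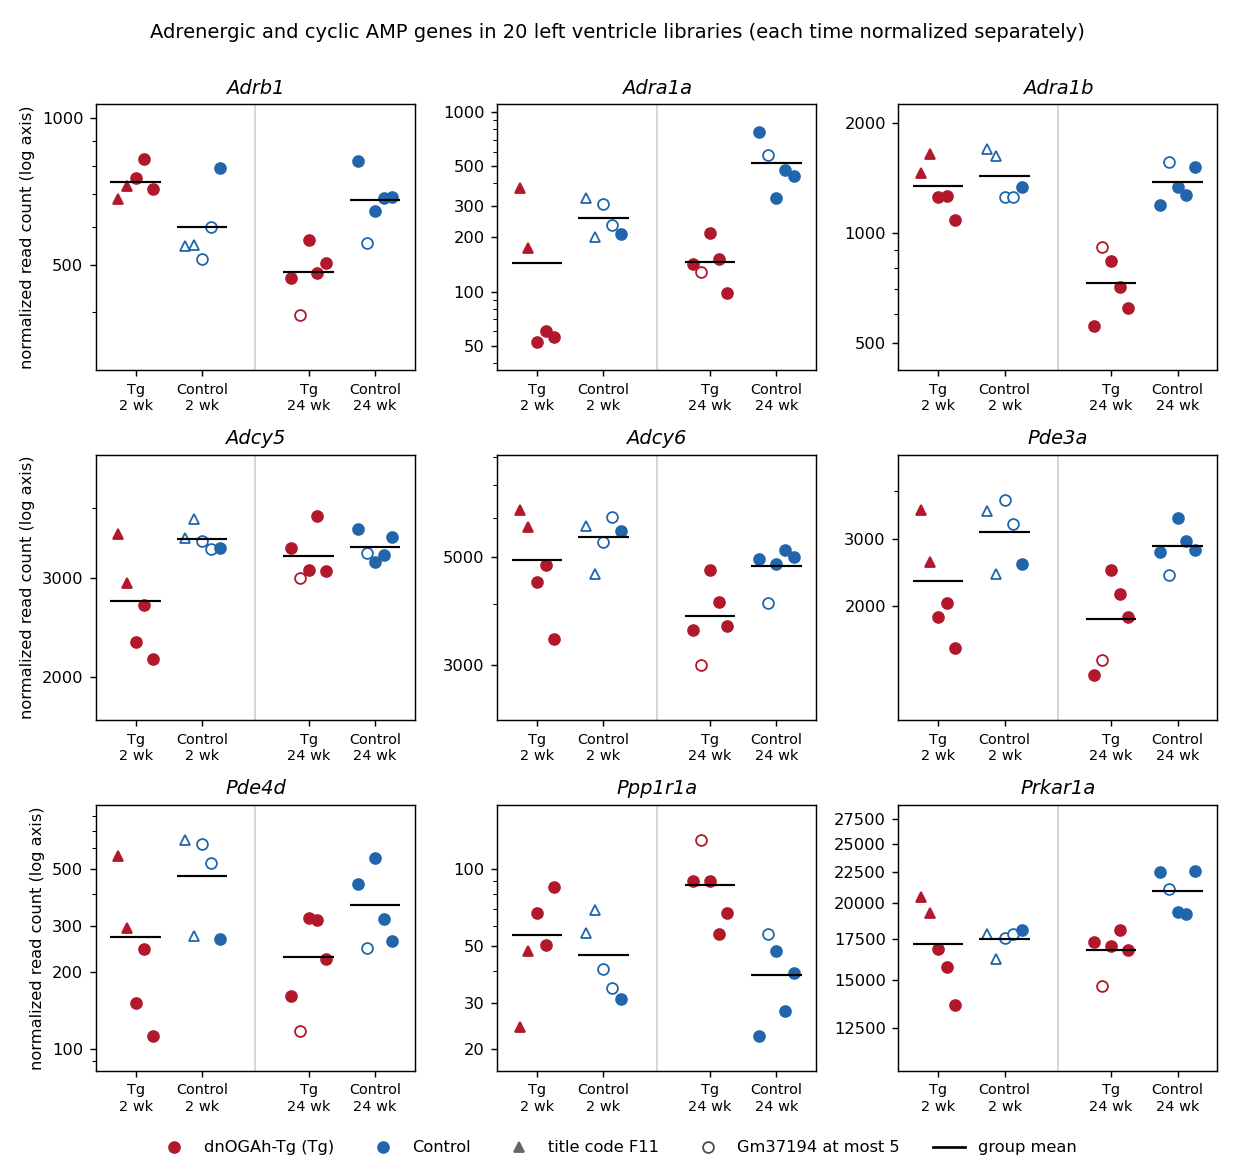
Normalized read counts (log axis) of the 9 genes in each library, dnOGAh-Tg left of Control at 2 and at 24 weeks, with black lines at group means; triangles mark libraries with the title code F11 and open symbols those with Gm37194 at most 5. Adra1a, Adra1b and Prkar1a separate the groups fully at 24 weeks, and at 2 weeks the 3 dnOGAh-Tg libraries that are not F11 lie below every Control library for Adra1a, Adcy5, Pde3a and Pde4d.

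Among the 3 receptors, the alpha-1A receptor Adra1a showed the greatest fall. Adra1a (chr14:66872700-67008617 of GRCm39, forward strand) had 142, 128, 211, 151 and 97.6 normalized counts in dnOGAh-Tg libraries of 24 weeks, against 769, 573, 329.8, 472 and 437 in Control libraries. Every dnOGAh-Tg library was below the lowest Control library. The log2 change was -1.80 (SE 0.23, limma adjusted p 0.000153, n = 5 each), a ratio of 0.287. Its adjusted p did not exceed 0.00318 in any of the 25 alternative settings tried.

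The alpha-1B receptor Adra1b (chr11:43665433-43792037 of GRCm39, reverse strand) had 555, 916, 835, 711 and 620.0 normalized counts in dnOGAh-Tg libraries of 24 weeks, against 1194, 1564, 1334, 1268 and 1519 in Control libraries. The groups did not overlap, and Adra1b fell by 0.93 on the log2 scale (SE 0.14, limma adjusted p 0.000428), a ratio of 0.523. Within a library the log2 ratio of Adra1a over Adra1b, which does not depend on that library's size factor, averaged -2.34 ± 0.40 in dnOGAh-Tg and -1.46 ± 0.53 in Control libraries (SD, n = 5 each). Those 2 sets of ratios overlapped, the lowest Control library lying at -2.02 and the highest dnOGAh-Tg library at -1.97.

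The beta-1 receptor Adrb1 (chr19:56710631-56721545 of GRCm39, forward strand), the main beta receptor of ventricular myocytes, had 469.7, 395, 562, 482 and 506 normalized counts in dnOGAh-Tg libraries of 24 weeks. Control libraries had 817, 556, 646, 688 and 690.1. The groups met at 1 point only, dnOGAh-Tg 3 lying just above Control 2. The log2 change was -0.49 (SE 0.12, limma adjusted p 0.0108), a ratio of 0.712. The alpha receptors Adra1d, Adra2b and Adra2c were called in 0 of 3 cases at 24 weeks by limma, edgeR and DESeq2 alike, and 0 of 3 had an unadjusted p under 0.05 in limma. Adra1d averaged 120 ± 31.5 normalized counts in dnOGAh-Tg and 136 ± 15.1 in Control libraries (SD, n = 5 each), and Adrb3 and Adra2a were too low for the test.

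The adenylyl cyclases Adcy5 and Adcy6 are the main forms of the adult ventricular myocyte. Adcy6 (chr15:98487854-98507957 of GRCm39, reverse strand) had 3535, 3004, 4704, 4036 and 3611 normalized counts in dnOGAh-Tg libraries of 24 weeks, against 4935, 4015, 4821, 5168 and 4989.9 in Control libraries. All but dnOGAh-Tg 3 and 4 lay below the lowest Control library. The log2 change was -0.35 (SE 0.12, limma adjusted p 0.0474), a ratio of 0.784. This call ended under edgeR (adjusted p 0.0624), without the filter on low values (0.0539), under quantile normalization (0.0858), under robust moderation (0.0506), with all 20 libraries in 1 fit (0.0836), and without any 1 of dnOGAh-Tg 1, 2, 4 or 5 or Control 1, 3, 4 or 5 (0.0502 to 0.107). The predicted gene Gm29331 overlaps Adcy6 on the other strand, and reads of the 2 cannot be told apart if strand was not used in counting, which the sources do not state.

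Adcy5 (chr16:34975247-35126108 of GRCm39, forward strand) had 3399, 3003, 3097, 3865 and 3086 normalized counts in dnOGAh-Tg libraries of 24 weeks, against 3672, 3324, 3210.4, 3305 and 3545 in Control libraries. The groups overlapped, with the highest library of all in the dnOGAh-Tg group. The log2 difference was -0.057 (SE 0.09, limma adjusted p 0.680), and it did not pass the test in any of the 25 alternatives. In log2 ratio, Adcy5 over Adcy6 averaged -0.19 ± 0.25 in dnOGAh-Tg and -0.48 ± 0.15 in Control libraries (SD, n = 5 each), with overlap.

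Both phosphodiesterases hydrolyse cyclic AMP, Pde3a in a form that cyclic GMP inhibits and Pde4d in a form specific for cyclic AMP. Pde3a (chr6:141194995-141453174 of GRCm39, forward strand) had 1320.3, 1442, 2479, 2145 and 1868 normalized counts in dnOGAh-Tg libraries of 24 weeks, against 2769.7, 2414, 3390.4, 2955 and 2798 in Control libraries. Only dnOGAh-Tg 3 reached above the lowest Control library, which was Control 2. The log2 change was -0.66 (SE 0.16, limma adjusted p 0.0105), a ratio of 0.632. Gm28523 overlaps its start on the other strand.

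Pde4d (chr13:108586482-110089995 of GRCm39, forward strand) had 161, 118, 321, 317 and 223 normalized counts in dnOGAh-Tg libraries of 24 weeks, against 435, 246, 550.3, 319 and 263 in Control libraries. Libraries of both groups lay between 246 and 321, and the spread was wide on both sides. The log2 difference of -0.70 (SE 0.29) did not pass the test (limma adjusted p 0.108), although it was larger than that of Pde3a. At 24 weeks each title code is shared by 1 library of each group, and Pde4d was lower in the dnOGAh-Tg library in 5 of 5 such pairs. With the title code as a block Pde4d passed (adjusted p 0.0200), as it did with the split on Gm37194 as a covariate, which was added after the values were seen (adjusted p 0.0407). The gene Rps3a3 lies inside Pde4d on the same strand. The log2 ratio of Pde4d over Pde3a averaged -3.08 ± 0.32 in dnOGAh-Tg and -3.04 ± 0.37 in Control libraries (SD, n = 5 each).

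Prkar1a encodes the type I alpha regulatory subunit of protein kinase A, which holds the catalytic subunits inactive until cyclic AMP binds. Prkar1a (chr11:109540231-109560482 of GRCm39, forward strand) had 17315, 14652, 17033, 18081 and 16776 normalized counts in dnOGAh-Tg libraries of 24 weeks, against 22493, 21142, 19330.2, 19218 and 22574 in Control libraries. The groups did not overlap. Prkar1a fell by 0.32 on the log2 scale (SE 0.09, limma adjusted p 0.0218), a ratio of 0.800. Under quantile normalization it came to -0.081 (adjusted p 0.615), and the call also ended without Control 1 (0.0510), without Control 5 (0.0599) and without the libraries coded F19 of both groups (0.0681).

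Ppp1r1a, inhibitor-1 of protein phosphatase 1, becomes an inhibitor once protein kinase A has phosphorylated it. Ppp1r1a (chr15:103438706-103446430 of GRCm39, reverse strand) had 90.0, 129.9, 90.2, 55.8 and 67.4 normalized counts in dnOGAh-Tg libraries of 24 weeks, against 22.4, 56.0, 47.9, 28.1 and 39.3 in Control libraries. All dnOGAh-Tg libraries except dnOGAh-Tg 4 lay above the highest Control library, and that one lay just under it. Ppp1r1a rose by 1.16 on the log2 scale (SE 0.28, limma adjusted p 0.0101), a ratio of 2.23.

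Promoter sequences are shown for 3 of the genes that fell, because the cyclic AMP response element is the sequence through which the CREB family of factors acts on its target genes. RefSeq promoters of build GRCm38.p6 (250 bases before and 50 after a start) were held for 5 of the 9 genes, with 11 starts in all. They were searched on both strands for TGACGTCA, the full element, and for TGACG, its core, whose reverse complement CGTCA overlaps it within the full element. The full element was found in 2 of the 11 windows, both of Prkar1a and sharing bases, and the core in 4, of which 1 belongs to Adrb1 and 3 to Prkar1a. Of all 32851 RefSeq promoter windows of that length, 1.79% hold the full element and 20.8% the core. The 250 bases before the start are printed from 5′ to 3′ on the gene's strand, with TGACG or CGTCA in capitals; the Adrb1 match starts at base 161. The regions are chr19:56721867-56722116 (forward strand) for Adrb1, chr11:43836490-43836739 (reverse strand) for Adra1b and chr11:109650699-109650948 (forward strand) for 1 start of Prkar1a.
Adrb1: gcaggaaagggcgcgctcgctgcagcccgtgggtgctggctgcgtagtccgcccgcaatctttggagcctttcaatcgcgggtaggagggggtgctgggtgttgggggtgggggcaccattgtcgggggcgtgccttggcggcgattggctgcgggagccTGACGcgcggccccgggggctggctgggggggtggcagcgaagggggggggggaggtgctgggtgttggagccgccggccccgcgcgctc
Adra1b: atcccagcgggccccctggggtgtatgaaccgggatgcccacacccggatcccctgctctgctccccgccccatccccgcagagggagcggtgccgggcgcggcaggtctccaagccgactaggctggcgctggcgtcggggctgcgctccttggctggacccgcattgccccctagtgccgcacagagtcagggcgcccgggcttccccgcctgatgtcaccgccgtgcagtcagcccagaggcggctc
Prkar1a: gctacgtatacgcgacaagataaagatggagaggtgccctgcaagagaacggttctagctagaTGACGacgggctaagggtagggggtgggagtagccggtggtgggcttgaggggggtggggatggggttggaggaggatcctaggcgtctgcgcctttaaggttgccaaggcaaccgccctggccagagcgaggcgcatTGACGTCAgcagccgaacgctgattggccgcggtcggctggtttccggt
The Adra1b window holds neither form, which says only that these letters are not in it.

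Levels per kilobase of exon (exon lengths from GENCODE M21) order the 9 genes within a table. In dnOGAh-Tg libraries of 24 weeks, Prkar1a was highest at 3881 normalized counts per kilobase, followed by Adcy6 at 557, Adcy5 at 458, Adra1b at 215, Pde3a at 145, Adrb1 at 143, Ppp1r1a at 66.4, Pde4d at 19.0 and Adra1a at 16.7. In Control libraries the order was Prkar1a at 4849, Adcy6 at 706, Adcy5 at 475, Adra1b at 407, Pde3a at 225, Adrb1 at 201, Adra1a at 59.1, Pde4d at 30.2 and Ppp1r1a at 29.6. Neighbours whose ranges over libraries overlapped were, in dnOGAh-Tg libraries, Adcy6 and Adcy5, Adra1b and Pde3a, Pde3a and Adrb1, and Pde4d and Adra1a. In Control libraries they were Adcy5 and Adra1b, Pde3a and Adrb1, Adra1a and Pde4d, and Pde4d and Ppp1r1a. Ppp1r1a thus stood above Adra1a in dnOGAh-Tg libraries and below it in Control libraries, by mean level per kilobase.

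At 2 weeks none of the 9 genes was called in the comparison of all 5 dnOGAh-Tg with all 5 Control libraries, and limma called 0 of 14584 genes in all, a background of 0%. None of the 9 had groups without overlap, beside 3.15% of all genes. At an unadjusted p under 0.05 there were 3551 genes (24.3%), 5 of them among the 9: Adrb1 higher and Adra1a, Adcy5, Pde3a and Pde4d lower. edgeR also called 0 genes, and DESeq2 called 607 higher and 243 lower, none of them among the 9. Set against all 5 Control libraries, the 3 dnOGAh-Tg libraries that are not F11 lay below every one for 4 of the 9 genes and above every one for 0, beside 33.1% of genes without overlap, 18% lower. These counts depended on the F11 libraries. Without the F11 dnOGAh-Tg libraries 5 of the 9 genes fell, beside 33.9% of 14633 genes called, 17.6% lower. Without the F11 libraries of both groups 4 fell and 1 rose, beside 22.8% called (11.5% higher, 11.3% lower). Leaving out dnOGAh-Tg 1, an F11 library, on its own gave 4 falls among the 9 (Adra1a, Adcy5, Pde3a and Pde4d, limma adjusted p 0.0153 to 0.0253). In that setting 23.2% of 14461 genes were called, 1646 higher and 1714 lower.

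Adra1a at 2 weeks had 379 and 175 normalized counts in the F11 dnOGAh-Tg libraries and 52.3, 60.5 and 55.9 in the other 3, against 331, 201, 306, 235 and 210.3 in Control libraries. The 3 were far below every Control library and the F11 pair spanned the Control range. The log2 difference was -1.27 (SE 0.47, limma adjusted p 0.149) over all libraries. Without the F11 dnOGAh-Tg libraries Adra1a fell by 2.14 (SE 0.19, limma adjusted p 6.76e-05). With the Gm37194 split as a covariate as well the log2 change was -1.89. This covariate leaves Control 5 as the only Control library compared with the dnOGAh-Tg libraries of 2 weeks, so that fit cannot decide whether the fall holds. That fit called 6.32% of genes and no other of the 9, and the covariate with all libraries called 0.0686% of genes and none of the 9.

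Adcy5 at 2 weeks had 3589 and 2947 normalized counts in the F11 dnOGAh-Tg libraries and 2313, 2683 and 2155 in the other 3, against 3534, 3820.2, 3488, 3379 and 3389.9 in Control libraries. Apart from dnOGAh-Tg 1, every dnOGAh-Tg library was below every Control library. The log2 difference was -0.39 (SE 0.13, limma adjusted p 0.134). The same difference passed with all 20 libraries in 1 fit (adjusted p 0.0384), which called 672 of 14339 genes higher and 485 lower. Without the F11 dnOGAh-Tg libraries Adcy5 fell by 0.57 (SE 0.10, limma adjusted p 0.00283).

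Pde3a at 2 weeks had 3569 and 2601 normalized counts in the F11 dnOGAh-Tg libraries and 1875, 2029 and 1550.2 in the other 3, against 3544, 2430.1, 3778, 3272 and 2573 in Control libraries. Pde4d had 558 and 294 in the F11 dnOGAh-Tg libraries and 151, 244 and 113 in the other 3, against 645, 274, 623, 524 and 267 in Control libraries. For both genes the 3 lay below every Control library and the F11 pair among them. Without the F11 dnOGAh-Tg libraries Pde3a fell by 0.77 on the log2 scale (SE 0.16, limma adjusted p 0.00545) and Pde4d by 1.43 (SE 0.34, limma adjusted p 0.00937). Adcy6 had a log2 difference of -0.18 (limma adjusted p 0.457) over all libraries and fell by 0.39 without that pair (SE 0.13, limma adjusted p 0.0432), with groups that overlapped.

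Adrb1 at 2 weeks had 683, 726, 754, 824 and 717 normalized counts in dnOGAh-Tg libraries, against 547, 549, 514, 597 and 792 in Control libraries. Control 5 lay inside the dnOGAh-Tg range, and the other 4 Control libraries lay below it. Control 5 is also the Control library that shared the high Gm37194 of the dnOGAh-Tg group. The log2 difference was 0.32 (SE 0.12, limma adjusted p 0.158). It was a rise of 0.42 without Control 5 (limma adjusted p 0.0453). With the Gm37194 split as a covariate its sign turned, to -0.10, but that fit sets the dnOGAh-Tg libraries against Control 5 alone.

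The remaining 3 genes gave no call at 2 weeks. Adra1b had 1084 to 1649 normalized counts in dnOGAh-Tg and 1251 to 1703 in Control libraries, a log2 difference of -0.10 (SE 0.13, limma adjusted p 0.649). Prkar1a had 13667 to 20454 in dnOGAh-Tg and 16236 to 18094 in Control libraries, a log2 difference of -0.040 (SE 0.12, limma adjusted p 0.845). Ppp1r1a had 24.3 to 85.5 in dnOGAh-Tg and 31.1 to 69.3 in Control libraries, a log2 difference of 0.20 (SE 0.33, limma adjusted p 0.712). Without the F11 libraries of both groups Ppp1r1a rose by 0.90 (SE 0.27, limma adjusted p 0.0418).

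**Figure D2:**
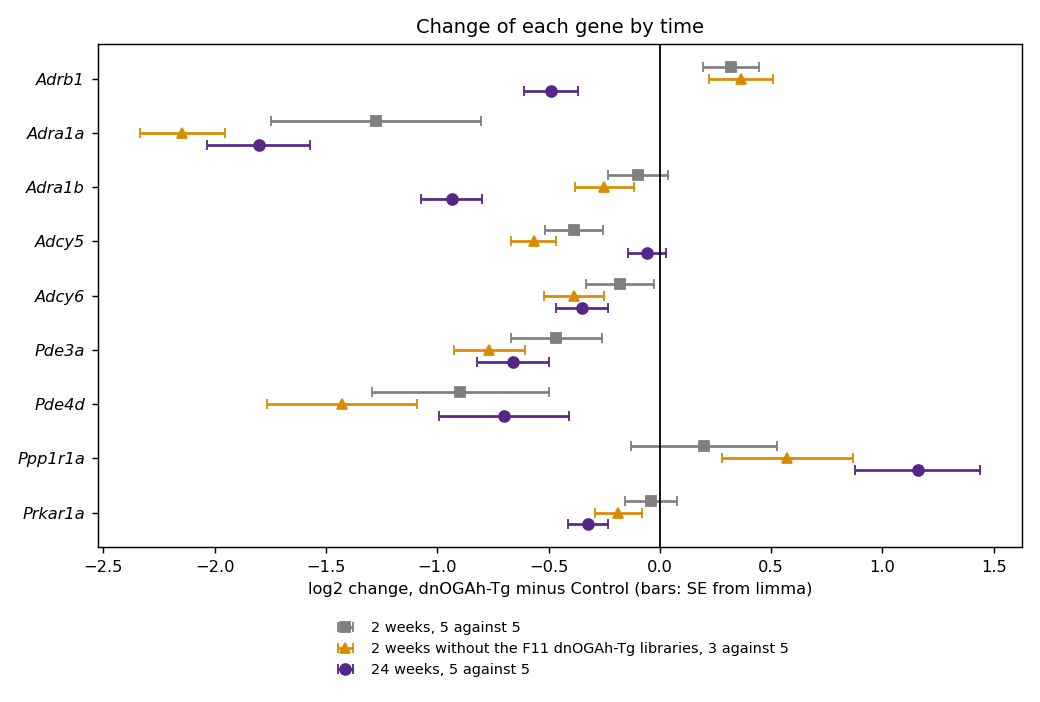
Log2 change of each gene, dnOGAh-Tg minus Control, with SE from limma, at 2 weeks (grey squares), at 2 weeks without the F11 dnOGAh-Tg libraries (orange triangles) and at 24 weeks (purple circles). Adrb1 lies at 0.32 at 2 weeks and -0.49 at 24 weeks, Adra1b at -0.10 and -0.93, and Adra1a is below -1 in all 3.

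Whether the change differed between the times was tested as the change at 24 weeks minus that at 2 weeks, in 1 fit of the 4 groups over 14339 genes, of which 1.76% were called. Of the 9 genes, 2 passed, both in the negative direction (0.683% of all genes). The difference was -0.81 for Adrb1 (SE 0.17, limma adjusted p 0.0202) and -0.84 for Adra1b (SE 0.20, limma adjusted p 0.0340). For Adrb1 it was -0.78 (adjusted p 0.115) without the F11 libraries of both groups, so the call ended. For Adra1b that setting gave -0.84 (adjusted p 0.0844), and leaving out the F11 dnOGAh-Tg libraries gave -0.69 (0.0690). Leaving out any 1 of 9 single libraries also ended the Adra1b call (0.0569 to 0.0710). With the Gm37194 split as a covariate the difference was -0.39 for Adrb1 and -0.92 for Adra1b. In that fit Control 5 is the only Control library behind the change at 2 weeks. Adcy5 did not pass over all libraries (0.33, SE 0.16, limma adjusted p 0.314), and did without the F11 dnOGAh-Tg libraries (0.51, SE 0.13, adjusted p 0.0407). The other 6 genes gave differences of -0.53 to 0.96 that did not pass the test.

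The other genes of the pathway were counted in 13 lists of 139 names, of which 126 could be tested at 24 weeks. Of these 15 rose and 28 fell, beside 11.3% higher and 11.1% lower over all genes, and their median log2 change was -0.087. Leaving out dnOGAh-Tg 1 of 24 weeks brought this to 10 higher and 16 lower, with 17% of all genes called. At 2 weeks 0 of 125 passed, 29 had an unadjusted p under 0.05, and edgeR called none and DESeq2 5, beside 5.83% of all genes in DESeq2. Without the F11 dnOGAh-Tg libraries 14 rose and 34 fell at 2 weeks, beside 16.2% higher and 17.6% lower over all genes. Without dnOGAh-Tg 1 alone 6 rose and 22 fell, beside 23.2% of all genes called. The counts by list that follow are of a few genes each and stand beside the same 22.5% of all genes called at 24 weeks.

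Of 6 other adenylyl cyclases tested at 24 weeks, 3 rose and 1 fell in limma, and 3 rose and 0 fell in edgeR. Adcy1, a calmodulin-stimulated form, averaged 193 ± 55.2 normalized counts in dnOGAh-Tg and 35.9 ± 13.8 in Control libraries (log2 change 2.44, SE 0.28, limma adjusted p 6.51e-05). Adcy8, another calmodulin-stimulated form, averaged 86.0 ± 36.2 in dnOGAh-Tg and 24.0 ± 8.50 in Control libraries (log2 change 1.76, limma adjusted p 0.00314), and Adcy7 rose by 0.94. Adcy9 fell, with 190.2 ± 95.2 in dnOGAh-Tg and 424 ± 201 in Control libraries (log2 change -1.21, limma adjusted p 0.0466), a call that ended under edgeR (0.0519).

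Of 16 genes listed as other phosphodiesterases, 0 rose and 4 fell, beside 22.5% of all genes called at this time, 11.3% higher and 11.1% lower. The list also holds Pde4dip, which encodes a protein that binds a phosphodiesterase and is not one itself. Its log2 difference was -0.16 (limma adjusted p 0.560). Pde4a, of the cyclic AMP specific family that also holds Pde4d, averaged 1711 ± 256 in dnOGAh-Tg and 2978 ± 346 in Control libraries without overlap (log2 change -0.80, SE 0.11, limma adjusted p 0.000305). Pde1c (-0.50), Pde4c (-0.82) and Pde11a (-1.24) also fell. Of 8 other subunits and inhibitors of protein kinase A, Prkaca, the main catalytic subunit, fell by 0.38 and the kinase inhibitor Pkia by 0.46, and the kinase inhibitor Pkib rose by 0.87. Of 10 anchoring proteins, which tether the kinase to its targets, 0 rose and 3 fell (Akap7 by 0.73, Akap12 by 0.46 and Akap9 by 0.45); the call of Akap9 ended under edgeR (adjusted p 0.0606). Among 8 other cyclic AMP effectors, 1 rose and 3 fell: Popdc3 rose by 0.71, while its relative Bves fell by 0.49, Rapgef3, which encodes Epac1, by 0.38 and the pacemaker channel Hcn4 by 1.32. The Hcn4 call (limma adjusted p 0.0341) ended under edgeR (0.0993) and DESeq2 (0.109).

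Upstream of the cyclases, 1 of 14 G protein subunits rose and 0 fell. Gnao1, an inhibitory-class alpha subunit, averaged 2508 ± 299 in dnOGAh-Tg and 949 ± 146 in Control libraries (log2 change 1.41, SE 0.12, limma adjusted p 7.21e-06), without overlap. Gnas, the stimulatory alpha subunit, did not pass (0.17, limma adjusted p 0.217). Of 10 other receptors that act on cyclic AMP, Adora1, the adenosine A1 receptor, rose by 1.11 and the prostaglandin receptor Ptger4 by 0.47, while the adenosine receptor Adora2a fell by 0.84 and the muscarinic receptor Chrm2 by 0.57. Ptger4 (limma adjusted p 0.0492) and Chrm2 (0.0479) lay at the threshold, and both calls ended under edgeR (0.0530 and 0.0729). Of 14 receptor kinases, arrestins and RGS proteins, 3 rose and 4 fell; Rgs2 fell by 1.02 and Rgs4 by 0.60, and Rgs6 rose by 0.78 and Rgs12 by 0.52. Of 7 genes of catecholamine synthesis, breakdown and uptake, 0 rose and 3 fell. They were the uptake transporter Slc22a3 (log2 change -1.73), monoamine oxidase B, Maob (-1.24), and dopamine beta-hydroxylase, Dbh (-1.18), the enzyme that makes noradrenaline. Dbh was also 1 of 3 sympathetic neuron markers, and the other two were not analysed here; it was listed with 70.5 to 131 normalized counts in dnOGAh-Tg and 162 to 301 in Control libraries.

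Downstream, 2 of 10 substrates of protein kinase A in the myocyte rose and 6 fell. Pln, which encodes phospholamban, the inhibitor of the calcium pump, averaged 105137 ± 12805 in dnOGAh-Tg and 211393 ± 17874 in Control libraries (log2 change -1.01, SE 0.13, limma adjusted p 0.000125). The calcium channel subunits Cacnb2 and Cacna1c fell by 1.03 and 0.94, and the potassium channel Kcnq1 by 0.78. Of these 10 genes, Ryr2 and Tnni3 also stand among the ventricular myocyte markers. None of 12 genes of protein phosphatases 1 and 2A and their inhibitors passed the test at 24 weeks (limma; 3 had an unadjusted p under 0.05, edgeR called 0 and DESeq2 1), apart from the inhibitor Ppp1r1a treated above. Of 8 CREB family members and coactivators, Creb5 rose by 1.03 and Crem by 0.40, and 0 fell. The change differed between the times for 5 of the 125 tested genes outside the 9, beside 1.76% of all genes called. The log2 change at 24 weeks minus that at 2 weeks was positive for Adcy1 (1.80), Gnao1 (1.28) and Rgs6 (1.06). It was negative for Rgs2 (-0.82) and Maob (-0.86). With the Gm37194 split as a covariate, Control 5 is the only Control library behind the change at 2 weeks, so that fit cannot decide whether these calls hold.

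**Figure D3:**
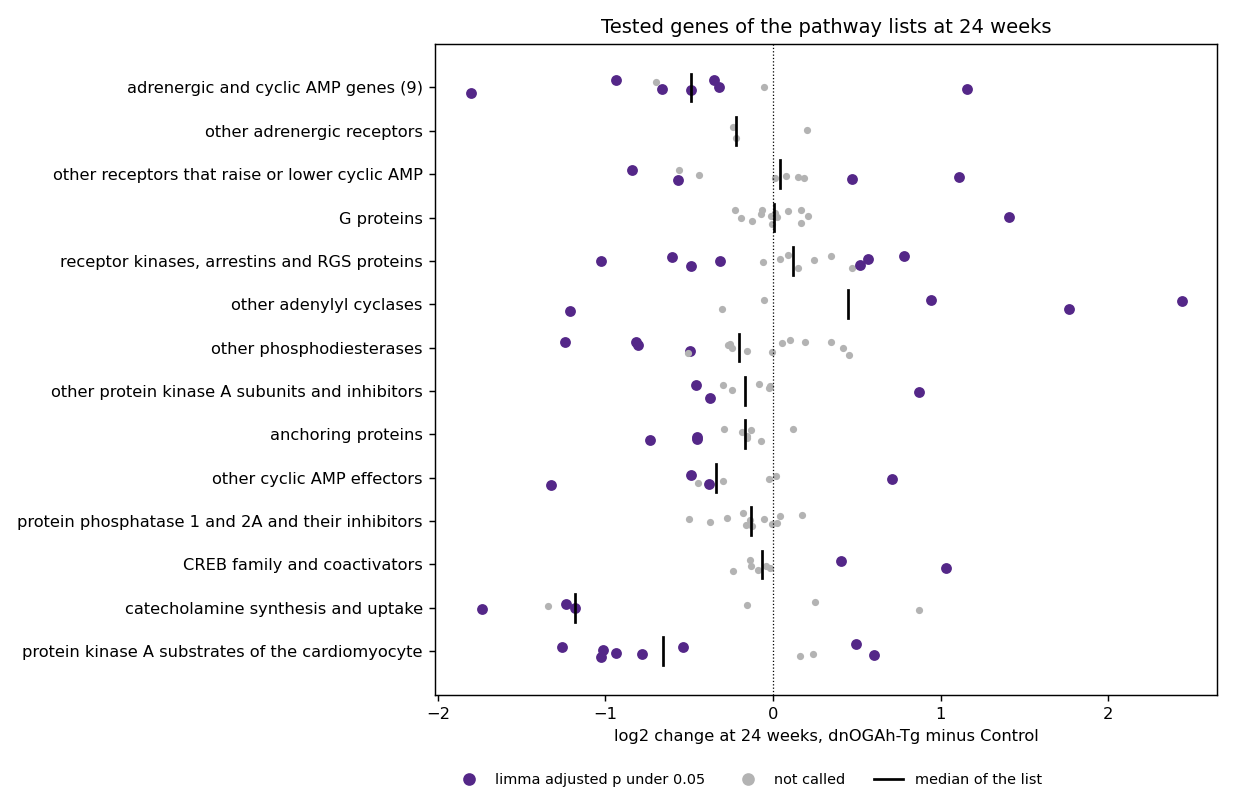
Log2 change at 24 weeks, dnOGAh-Tg minus Control, of every tested gene of the 9 (top row) and of 13 lists of other pathway genes; purple points passed the limma test at an adjusted p under 0.05, grey points did not, and black bars are medians. Of the other cyclases 3 rose and 1 fell. Of the 16 genes listed as other phosphodiesterases, which include Pde4dip, 4 fell, beside 22.5% of all genes called (11.1% lower).

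Over the 20 libraries, levels of most of the 9 genes varied together, described here as Pearson's r of log2 values after subtracting the mean of each table. The libraries share tables, groups and the depth of each library. Of the 9 genes, Pde3a and Pde4d have the greatest exon lengths (12737 and 12006 bases) and Ppp1r1a the smallest (1306 bases). The part of exon length or RNA quality in these correlations was not tested. Pde3a and Pde4d had r = 0.93, and 0.93 again after each group's mean was removed. Removing group means keeps the difference between the F11 and the other dnOGAh-Tg libraries of 2 weeks. The part of that difference in these values was not tested. Adra1a had 0.84 with Pde3a (0.67 with group means removed), and Adcy6 had 0.88 with Pde3a (0.84). Ppp1r1a ran against them, with -0.82 against Prkar1a (-0.68) and -0.80 against Adcy6 (-0.72). Adrb1 had lower values with most of them, -0.23 with Adcy5, 0.052 with Pde4d, 0.18 with Adra1a and 0.41 with Adcy6. It had 0.48 with Prkar1a (0.18 with group means removed) and -0.60 with Ppp1r1a (-0.47). Among 13000 other genes, the most alike was Rapgef2 for Pde4d (r = 0.99, and 0.98 with group means removed), Ghr for Pde3a (0.98, 0.96), Ablim1 for Adra1a (0.97, 0.92) and Hspb6 for Ppp1r1a (0.95, 0.93). It was Nadk2 for Adcy6 (0.94, 0.93), Efnb3 for Adra1b (0.94, 0.75), Atp9b for Adcy5 (0.93, 0.89), Nt5dc3 for Prkar1a (0.91, 0.86) and Ctdsp1 for Adrb1 (0.81, 0.71).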

How the data were processed

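The 20 libraries of left ventricle RNA fall into 4 groups of 5 by their titles. Per the submitters' processing notes, the build was GRCm39 and the tools included STAR 2.7.3a, DESeq2 under R 4.0.3, and, for trimming, cutadapt 2.6 and Trim Galore 0.6.6. No source used here names the read counter, the annotation release or the strand setting. The authors deposited 1 table per time whose values are a normalized signal, read counts divided by 1 size factor per library. In each column 100% of values above 0 were whole multiples of 1 step within 0.01 read; these whole reads served as counts for edgeR and DESeq2. The 2 tables were normalized separately, so the tests at each time ran within its table. The test of the difference between times and the setting with all 20 libraries in 1 fit joined the tables. There each change was still taken between groups of the same time.

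After adding 1, values were put on a log2 scale; genes with at least 10 in at least 5 of 10 libraries entered a two-sided limma-trend fit (R 4.3.3, limma 3.58.1). Adjusted p-values are Benjamini-Hochberg over every gene tested, called under 0.05. Alternatives were edgeR 4.0.16, DESeq2 1.42.0, other pseudocounts, filters and scalings, blocks for the replicate number or the title code, and libraries left out singly or by title code. A split on Gm37194 (at most 5 or more) was added after its values were seen. The members, lists and tests were chosen with earlier results of these data known. Pathway genes were named by a rule. It took up to 4 per list with the smallest p among those called at 24 weeks. It also took those called for the difference between times, and the genes most alike each member. Oga served as the check of the transgene. Gnas, Adra1d, Adra2b, Adra2c, Adrb3, Adra2a, Ryr2, Tnni3 and Pde4dip were named outside the rule, after their values were seen. One listed gene is not reported here. On simulated data the procedure recovered 81.8% of genes at a log2 change of 1 and 97.9% at 2 for 24 weeks (14714 genes), with 5.91% false calls. For 2 weeks it recovered 70.0% and 95.8% (14619 genes), and for the difference between times 52.5% and 88.8% (14315 genes). Whether these rates hold for the deposited libraries of 2 weeks, and so for the difference between times, was not tested. In those libraries limma called 0 of 14584 genes at 2 weeks, and 4955 of 14633 without the F11 dnOGAh-Tg libraries. No pair of libraries within a group was alike within sampling noise (lowest chi-square per degree of freedom 12.2).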

Additional observations from a re-analysis of the deposited data

Results flagged for a closer look

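The change differed between the times for 2 receptors by the test of the difference itself. For Adrb1, the change at 24 weeks minus that at 2 weeks was -0.81 on the log2 scale (limma adjusted p 0.0202), with changes of 0.32 at 2 weeks and -0.49 at 24 weeks, and for Adra1b it was -0.84 (limma adjusted p 0.0340), with changes of -0.10 at 2 weeks and -0.93 at 24 weeks. Both calls ended without the F11 libraries of both groups. With the Gm37194 split as a covariate the differences were -0.39 for Adrb1 and -0.92 for Adra1b. At 2 weeks that split sets all 5 dnOGAh-Tg libraries and Control 5 against the other 4 Control libraries, so it and the group can hardly be told apart there. Only Control 5 is then compared with the dnOGAh-Tg libraries of 2 weeks, so that fit cannot decide whether the calls hold. Prkar1a had 1 library far from the rest of its group. In Control libraries of 2 weeks the lowest, Control 2 at 16236 normalized counts, lay below the next by 0.728 of the group's range, past Dixon's critical value of 0.71 for 5 values; 36 groups were tested this way and 1 was past that value, while chance puts about 1 in 20 past it.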

How the results depend on the processing

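Of the single-gene results under alternative settings, 718 kept direction and side of the threshold, 40 lost the call, 21 gained one and 13 changed sign. At an adjusted p under 0.01 the number of the 9 genes called was 2 at 24 weeks (7 at 0.05) and 0 for the difference between times (2 at 0.05), and that of other pathway genes at 24 weeks was 22 (43 at 0.05). Calls over all genes were not counted at 0.01. Leaving out 1 library at a time gave 5 to 7 of the 9 genes at 24 weeks, 0 to 4 at 2 weeks and 1 to 2 for the difference, and 26 to 42 other pathway genes at 24 weeks and 0 to 28 at 2 weeks. Over all genes the same settings gave 1223 to 1590 higher and 1250 to 1590 lower at 24 weeks. They gave 0 to 1646 higher and 0 to 1714 lower at 2 weeks, and 72 to 270 higher and 25 to 413 lower for the difference. At 2 weeks, where the main count was 0 for both, the 9 genes and the other pathway genes gave 5 and 48 without the F11 dnOGAh-Tg libraries, 5 and 32 without the F11 libraries of both groups, 1 (Adcy5) and 8 with all 20 libraries in 1 fit, and 1 and 10 with the Gm37194 split as a covariate and without the F11 dnOGAh-Tg libraries; DESeq2 gave 5 other pathway genes. The difference between times gave 0 of the 9 without the F11 libraries of both groups. Other calls with the Gm37194 covariate are not counted for 2 weeks or for the difference. At 2 weeks the covariate leaves Control 5 as the only Control library compared with the dnOGAh-Tg libraries. The counts above with the covariate rest on that comparison too. Replicate numbers were not taken to pair the libraries, since 2 of 5 pairs correlated above 0.1 at each time; at 24 weeks same-numbered libraries share a title code, but the labels do not say what the code marks. With the replicate number as a block, 8 of the 9 genes were called at 24 weeks (Pde4d too, limma adjusted p 0.0200), 0 at 2 weeks and 2 for the difference, with 48 other pathway genes at 24 weeks and 1 at 2 weeks. Over all genes the block gave 1919 higher and 2002 lower at 24 weeks, beside 1662 and 1634 without it. It gave 202 higher and 39 lower at 2 weeks, and 200 higher and 222 lower for the difference.

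The sign turned for Adrb1 at 2 weeks with the Gm37194 covariate (-0.10, and -0.052 without the F11 dnOGAh-Tg libraries as well) and for Prkar1a at 2 weeks without dnOGAh-Tg 5 (0.039; -0.11 to 0.039 leaving out 1 library). In the difference between times it turned without the F11 dnOGAh-Tg libraries for Adra1a (0.34), Adcy6 (0.035) and Pde3a (0.10), without the F11 libraries of both groups for Adra1a (0.32), Adcy6 (0.090) and Pde3a (0.15), and with the covariate and without the F11 dnOGAh-Tg libraries for Adra1a (0.086) and Adcy6 (0.082). For Pde4d it turned without dnOGAh-Tg 5 of 2 weeks (-0.062; -0.062 to 0.51 leaving out 1 library) and with the covariate (-0.50). The main values of all these were not called, and the cause was not tested.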
